A study of Arabidopsis thaliana with 12 samples.

Results

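The comparison is mannitol at 21°C against 21°C without mannitol, in whole seedlings of wild type Columbia Arabidopsis thaliana, with 3 libraries in each group and 6 of the 12 libraries of the series in all. It covers every gene of the deposited table, 27655 in number, of which 20005 reached at least 1 TPM in at least 3 of the 12 libraries and were tested. TPM divides a gene's reads by its length and scales each library to a total of 1000000 transcripts. Seedlings of both groups had grown for 7 days at 21°C in short days of 8 h light and 16 h dark. Treatment began 1 h after lights on (ZT1), the temperature stayed at 21°C in both groups, and seedlings were harvested at ZT13, so mannitol acted for 12 h. The other groups of the series had the same history and were moved to 27°C, with or without mannitol. They enter the shared estimate of spread and the last comparison below. Neither the dose of mannitol nor the way it was applied is stated in the labels. The labels do not say whether replicates of a group were separate cultures, so the p-values reflect only how far these samples scatter, which may be technical. Whole seedlings mix many cell types, and in such bulk RNA fewer cells of a type and less RNA per cell cannot be told apart.

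Mannitol is a sugar alcohol that plant cells take up poorly, so in the medium it lowers the water potential and draws water from cells. Abscisic acid is the hormone best known for water deficit. Salicylic acid, made mainly through isochorismate synthase (ICS1), is the hormone best known for defence against biotrophic pathogens. The title of the series ties salicylic acid and the clock protein ELF3 to the way drought stops warm seedlings from elongating. The comparison at 21°C shows what mannitol alone does in seedlings that were never warmed.

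The 6 libraries are called control library 1 to 3 and mannitol library 1 to 3 after their replicate numbers and had between 13477706 and 14213880 reads, as recovered from the TPM values. The first principal component of these libraries held 68% of the variance and separated the groups, and the second held 11% and spread mainly the 3 control libraries. Genes with at least 1 TPM numbered 18762 to 18908 in control libraries and 19305 to 19359 with mannitol. The 50 most abundant transcripts held 18.8% to 19.5% of TPM in control libraries and 16.0% to 16.2% with mannitol. TPM is a share of a library's total, so every level is relative to it. The median log2 difference over all tested genes was 0.08. A median-of-ratios rescaling of the libraries moved log2 differences down by 0.10, to a median of -0.02, and counts are given with it wherever it matters.

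Mannitol raised many transcripts by large steps and lowered far fewer as strongly. With limma, 3089 genes, 15.4% of those tested, were higher with mannitol, and 922, or 4.61%, were lower. After rescaling 2069 genes (10.3%) were higher and 1907 (9.53%) lower, so the share of calls that were higher went from 77.0% to 52.0%. The 2069 were all among the 3089, and the 922 all among the 1907. In what follows, rose and fell mean an adjusted p below 0.05, and a log2 difference is that of log2(TPM + 1), mannitol minus control, with the standard error of the fit. At least 2-fold, 671 genes (3.35%) rose and 76 (0.38%) fell, and all of them were called in the same direction after rescaling too. At least 4-fold changes comprised 145 higher and 16 lower genes, and at least 8-fold changes 45 and 5. The 671 genes held 0.795% of TPM in control seedlings and 2.67% with mannitol, while the 76 went from 0.992% to 0.413%. The libraries of the groups did not overlap for 7844 genes, 39.2% of those tested. The count of lower genes depended on single libraries, being 607 without control library 1, 595 without mannitol library 1 and 576 without mannitol library 3.

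**Figure D1:**
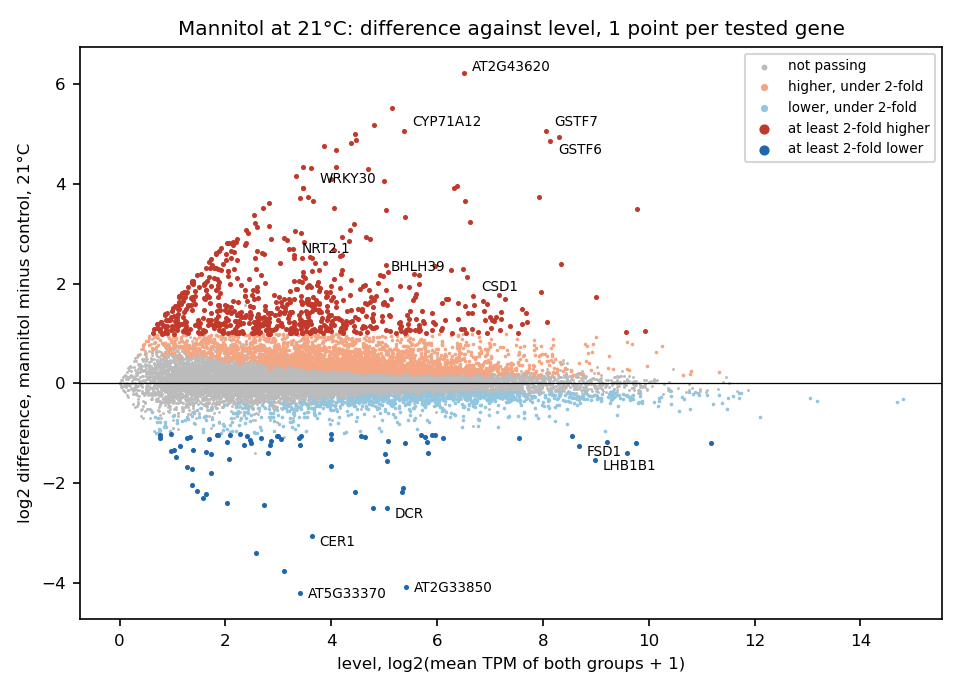
Log2 difference (mannitol minus control at 21°C, vertical) against level (log2 of the mean TPM of both groups plus 1, horizontal), with 1 point for each of the 20005 tested genes; colours give the direction and whether the change reached 2-fold. The 671 red points outnumber the 76 dark blue ones, and the most abundant transcripts, on the right, lie mostly below 0.

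The genes that rose most included a chitinase, indole and detoxification enzymes and a WRKY factor. The chitinase family gene AT2G43620, whose product is of a type that cuts the chitin of fungal walls, had 1.18, 2.4 and 0.825 TPM in the control libraries and 192, 167 and 174 TPM with mannitol. Every mannitol library stood far above every control library (log2 difference 6.22 ± 0.17, adjusted p = 6.07e-12). CYP71A12 (AT2G30750) acts on indole-3-acetaldoxime on the way to camalexin and indole carboxylic acids. It went from 0.702, 1.33 and 2.54 TPM to 75, 77.1 and 85.6 TPM, again without overlap (5.05 ± 0.23, adjusted p = 7.09e-10).

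The glutathione transferases GSTF6 (AT1G02930) and GSTF7 (AT1G02920), which join glutathione to reactive compounds, were abundant genes among these. GSTF6 stood at 20.3, 16.4 and 17 TPM in control seedlings and at 552, 546 and 537 TPM with mannitol (4.86 ± 0.10, adjusted p = 3.69e-13). GSTF7 went from 11.8, 13.9 and 18.3 TPM to 533, 466 and 553 TPM (5.07 ± 0.12, adjusted p = 1.00e-12). The copies lie next to each other and are nearly identical, so the split of reads between them is uncertain, while both stood in separate ranges in the groups. WRKY30 (AT5G24110), a transcription factor of the WRKY family, went from 0.104, 0.210 and 0.207 TPM to 23.5, 21.9 and 21.9 TPM (4.32 ± 0.15, adjusted p = 4.30e-11). The rest of the 15 highest genes rose by 4.33 to 5.52. They hold GSTF3, GSTU12, the methyltransferase PXMT1, the berberine bridge enzyme family genes AT1G26420 and AT1G26380, the cupin AT5G38910, the kinase-like AT4G18253, the nucleoside triphosphatase AT3G28510 and the uncharacterized AT1G65500 and AT5G42530. AT1G26420 and AT1G26380 are close relatives in 1 cluster, for which read sharing is also uncertain.

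W-box letters, which WRKY proteins are known to bind, were counted in the promoters of the strongly changed genes. The W-box core TTGAC was counted on both strands in the 250 bases before each gene start of the RefSeq TAIR10.1 annotation, 19893 windows in all. At least 2 matches were present in 14.3% of all windows (2845), in 32.2% of the windows of genes at least 2-fold higher (216 of 670) and in 3.95% of those of genes at least 2-fold lower (3 of 76). Of the 15 highest genes 8 had at least 2 matches and 12 at least 1, with 4 at most, while of the 15 lowest none had 2 and 5 had 1. These shares describe letters in the windows and were not tested. The other motifs were counted from 1 match on, also on both strands. The TGA-factor core TGACG was in 25.4% of the windows of strongly higher genes, 13.2% of strongly lower genes and 19.2% of all, and it overlaps the W-box core wherever the letters TTGACG occur. Among the other motifs counted, the G-box CACGTG was in 5.37%, 7.89% and 7.46% of the strongly higher, strongly lower and all windows in that order. The abscisic acid response element ACGTGGC was in 1.79%, 2.63% and 3.88% and can overlap the G-box. The dehydration element core CCGAC was in 11.2%, 7.89% and 12.8%. The ethylene element GCCGCC was in 2.54%, 0% and 1.91%, and the evening element AAAATATCT in 2.39%, 2.63% and 2.47%.

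The windows of 5 genes among the 15 highest and of CER1, a gene among the 15 lowest, are shown to set the W-box cores beside the values; they were chosen after their matches had been counted. Each is the 250 bases before the gene start on the gene's own strand, 5′ to 3′, with each TTGAC or its reverse complement GTCAA in capitals.
AT2G43620 (chr2:18095094-18095343, minus strand, 3 matches): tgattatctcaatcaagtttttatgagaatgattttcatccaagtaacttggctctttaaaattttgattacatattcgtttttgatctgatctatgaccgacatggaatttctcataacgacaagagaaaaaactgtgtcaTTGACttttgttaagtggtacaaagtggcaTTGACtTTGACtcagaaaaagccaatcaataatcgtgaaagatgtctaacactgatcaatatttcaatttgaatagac
WRKY30 (chr5:8154711-8154960, minus strand, 3 matches): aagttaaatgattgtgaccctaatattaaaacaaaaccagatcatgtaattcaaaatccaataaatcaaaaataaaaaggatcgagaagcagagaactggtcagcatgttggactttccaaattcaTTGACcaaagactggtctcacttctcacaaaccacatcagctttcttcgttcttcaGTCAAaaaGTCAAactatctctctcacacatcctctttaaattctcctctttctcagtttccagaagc
GSTF7 (chr1:659981-660230, minus strand, 3 matches): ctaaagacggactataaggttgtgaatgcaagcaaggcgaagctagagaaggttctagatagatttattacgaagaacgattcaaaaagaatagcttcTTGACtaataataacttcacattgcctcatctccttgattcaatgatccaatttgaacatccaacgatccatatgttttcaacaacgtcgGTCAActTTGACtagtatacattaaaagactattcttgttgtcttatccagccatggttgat
CYP71A12 (chr2:13101372-13101621, minus strand, 2 matches): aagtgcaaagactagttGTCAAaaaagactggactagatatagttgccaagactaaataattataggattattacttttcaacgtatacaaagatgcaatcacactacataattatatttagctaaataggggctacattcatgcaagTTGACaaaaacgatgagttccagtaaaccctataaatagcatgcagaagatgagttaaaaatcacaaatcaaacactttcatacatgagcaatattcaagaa
AT1G26380 (chr1:9128569-9128818, minus strand, 4 matches): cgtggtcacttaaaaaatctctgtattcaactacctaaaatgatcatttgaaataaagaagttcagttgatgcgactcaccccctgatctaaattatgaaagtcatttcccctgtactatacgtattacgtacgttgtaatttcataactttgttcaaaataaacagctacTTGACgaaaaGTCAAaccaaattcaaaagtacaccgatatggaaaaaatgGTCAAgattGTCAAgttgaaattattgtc
CER1 (chr1:418166-418415, plus strand, 0 matches): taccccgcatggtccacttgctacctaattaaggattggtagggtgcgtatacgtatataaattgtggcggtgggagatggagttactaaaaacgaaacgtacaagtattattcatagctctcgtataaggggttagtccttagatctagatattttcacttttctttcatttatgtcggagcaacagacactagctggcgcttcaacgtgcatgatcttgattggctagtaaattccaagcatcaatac

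Surface lipid genes were among those that fell most, beside genes of other or uncertain role. AT5G33370, a GDSL lipase family gene, went from 19.0, 17.3 and 21.3 TPM to 0.219, 0 and 0.0735 TPM (-4.20 ± 0.15, adjusted p = 4.30e-11). AT2G33850, annotated as an E6-like protein, stood at 76.0, 83.7 and 79.6 TPM in control seedlings and at 3.82, 3.93 and 3.57 TPM with mannitol (-4.08 ± 0.10, adjusted p = 1.00e-12). CER1 (AT1G02205), which makes the long-chain alkanes of leaf wax, went from 23.3, 19.2 and 20.8 TPM to 1.57, 1.79 and 1.63 TPM (-3.05 ± 0.15, adjusted p = 1.16e-09). None of these ranges overlapped. DCR (AT5G23940), an acyltransferase of cutin synthesis, fell from between 54.9 and 56.1 TPM to between 8.46 and 9.32 TPM (-2.50 ± 0.09, adjusted p = 5.94e-11).

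Other genes among the 15 lowest work in glucosinolate breakdown, in hormone release and in the wall. BGLU18 (AT1G52400), a glucosidase that frees abscisic acid from its glucose ester, fell by 2.49 ± 0.12. The myrosinase TGG2 (AT5G25980), which cleaves glucosinolates, fell by 2.18 ± 0.11, and the proline-rich wall protein PRP2 by 2.09 ± 0.11. The uncharacterized AT5G23115 was listed at 0 in all 3 mannitol libraries and at 28.5, 5.78 and 11.4 TPM in the controls. The remainder were AT1G06100, MEE3, AT3G52550, AT3G05600, CYP79F1, CYP77B1 and LHB1B1, with log2 differences between -3.40 and -1.54.

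**Figure D2:**
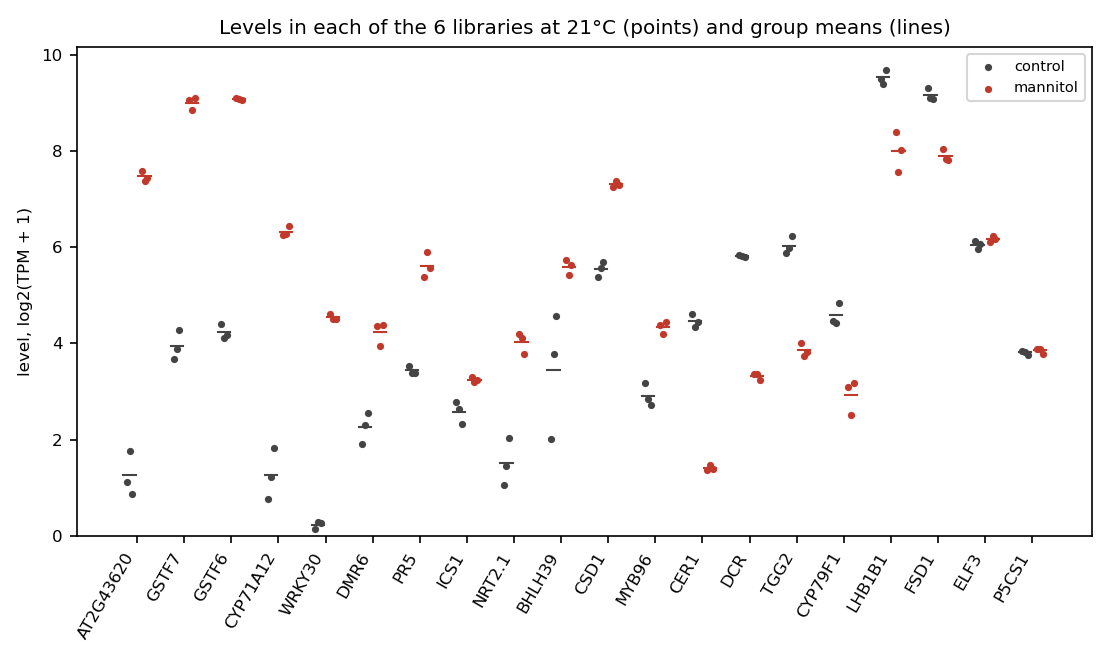
Level of 20 genes in each of the 6 libraries at 21°C, as log2(TPM + 1), with a point per library (grey control, red mannitol) and a line at each group mean. The groups stand apart for AT2G43620, GSTF6, GSTF7, CYP71A12, WRKY30, CER1 and DCR, while the points of ELF3 and P5CS1 overlap, and the control points of BHLH39 spread from 3.0 to 22.7 TPM.

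Transcripts of immune perception were mostly higher. In the list for pattern recognition and early immune signalling 18 of 29 rose and none fell, 17 and 0 after rescaling, with a median log2 difference of 0.54. PROPEP3, the precursor of an elicitor peptide, rose by 2.4 ± 0.34. SOBIR1 (AT2G31880), a co-receptor of receptor-like proteins, went from 27.8, 26.2 and 27.5 TPM to 74.5, 74.6 and 80.2 TPM (1.46 ± 0.12, adjusted p = 4.00e-07). The chitin receptor kinase LYK5 rose by 1.24 ± 0.15. Cysteine-rich receptor-like kinases, many of which respond to pathogens and oxidative stress, had 18 of 29 tested members higher and 0 lower. Of the 18, 11 rose at least 2-fold. After rescaling the counts were 16 and 0, and with no filter on low values 22 and 0 of 38. A member near 0 TPM in the controls can be called higher but hardly lower. CRK20 (AT4G23280) went from 0, 0 and 0.232 TPM to 18.0, 18.1 and 18.2 TPM (4.15 ± 0.15), and CRK14, CRK31 and CRK5 rose by 3.92, 3.62 and 3.22. Several of these kinases sit side by side as similar copies on chromosome 4, which leaves the split of reads among them uncertain.

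Genes for intracellular immune signalling rose by smaller steps. Of 15 tested members 8 rose and 0 fell, 6 and 0 after rescaling. EDS1 (AT3G48090), a hub of signalling from intracellular receptors, went from 20.2, 20.4 and 18.9 TPM to 27.2, 27.1 and 30.5 TPM (0.49 ± 0.08, adjusted p = 0.00062). Its partners PAD4 and SAG101 rose by 0.68 ± 0.14 and 0.91 ± 0.09. NDR1, a membrane protein that works with another class of receptors, rose by 1.05 ± 0.15.

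Salicylic acid genes rose on the ICS1 route and in turnover. Of 18 tested members of the synthesis and turnover list 10 rose and 1 fell, 7 and 1 after rescaling. The 10 and 1 are 55.6% and 5.56%, against 15.4% and 4.61% of all tested genes. Only 7 rose without control library 1 or 2 or mannitol library 1 or 3. ICS1 (AT1G74710) had 5.88, 5.23 and 4.03 TPM in the control libraries and 8.80, 8.17 and 8.46 TPM with mannitol, a rise without overlap (0.66 ± 0.13, adjusted p = 0.00238). Its relative ICS2 fell by 0.81 ± 0.14. PBS3, which conjugates isochorismate with glutamate, rose by 1.71 ± 0.20, whereas the exporter EDS5 was at 0.22 and EPS1, the next enzyme, at 0.05, and neither passed. CBP60G, a transcription factor that activates ICS1, rose by 1.72 ± 0.19.

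DMR6 and UGT76B1, enzymes that remove or modify the hormone, were raised further than ICS1, as was PBS3 of the ICS1 route. DMR6 (AT5G24530), a salicylic acid hydroxylase, went from 2.78, 3.94 and 4.90 TPM to 19.7, 14.5 and 19.9 TPM (1.97 ± 0.15, adjusted p = 2.90e-07). UGT76B1 (AT3G11340), which glucosylates salicylic acid and N-hydroxypipecolic acid, went from 17.9, 19.6 and 26.7 TPM to 71.3, 70.6 and 75.7 TPM (1.73 ± 0.11, adjusted p = 3.38e-08). FMO1, which makes N-hydroxypipecolic acid, the mobile signal of systemic resistance, rose by 1.99 ± 0.27, and ALD1 at the start of that pathway was too low to be tested.

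Downstream of the hormone, 14 of 17 tested members of the receptor, TGA factor and PR gene list rose and 0 fell, 13 and 0 after rescaling, with a median of 0.84. PR5 (AT1G75040), a thaumatin-like antimicrobial protein, went from 10.6, 9.42 and 9.51 TPM to 40.7, 58.7 and 46.2 TPM (2.18 ± 0.16, adjusted p = 1.16e-07). NIMIN2, a partner of the receptor NPR1, rose by 1.85 ± 0.26, and the glutaredoxin GRX480 by 1.74 ± 0.22. The receptor NPR1 itself was at 25.7, 28.2 and 27.5 TPM and at 33.4, 31.4 and 32.3 TPM (0.25 ± 0.09, adjusted p = 0.0589), so its groups did not overlap but it missed the threshold. PR1, the usual marker gene of salicylic acid, was listed at 0 in all 6 libraries. Of 13 tested chitinases 9 rose and 1 fell, 8 and 1 after rescaling, among them PR3 (0.97 ± 0.22) and the tandem copies AT2G43570 (2.89 ± 0.18) and AT2G43590 (2.3 ± 0.14), between which read sharing is uncertain.

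WRKY factors as a family were higher. Of 57 tested members 35 rose and 1 fell, 32 and 1 after rescaling, and 18 rose at least 2-fold. With no filter on low values the counts were 34 and 0 of 64. No WRKY member was called lower once any 1 of the 6 libraries was left out. WRKY53 (AT4G23810), known for leaf senescence and salicylic acid responses, went from 1.13, 1.35 and 3.07 TPM to 17.4, 18.6 and 19.2 TPM (2.83 ± 0.21, adjusted p = 2.22e-07). WRKY60, WRKY51 and WRKY8 rose by 2.09, 1.98 and 1.87, and WRKY71 was listed at 0 in the controls and at 5.14, 4.93 and 5.18 TPM with mannitol.

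A network of ERF, WRKY and ZAT factors is known to respond early when mannitol slows the growth of young leaves, and here 18 of its 20 tested members rose, 12 of them at least 2-fold, and 0 fell. The median was 1.13. After rescaling 17 rose and 1 fell. Without control library 1 or mannitol library 1 the risers came to 14. In a fit of only the 6 libraries at 21°C 16 members were higher and 1 lower. ERF5 (AT5G47230) had 4.45, 6.31 and 6.08 TPM in control seedlings and 19.7, 24.7 and 22.6 TPM with mannitol (1.83 ± 0.16, adjusted p = 8.02e-07). RAP2.6L rose by 1.60 ± 0.13, ZAT10 by 1.41 ± 0.21 and WRKY33, a regulator of camalexin genes, by 1.34 ± 0.11. ERF2 and ERF8, at 0.07 and -0.27, did not pass, and ERF8 was the member that fell after rescaling (-0.37, adjusted p = 0.0211).

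**Figure D3:**
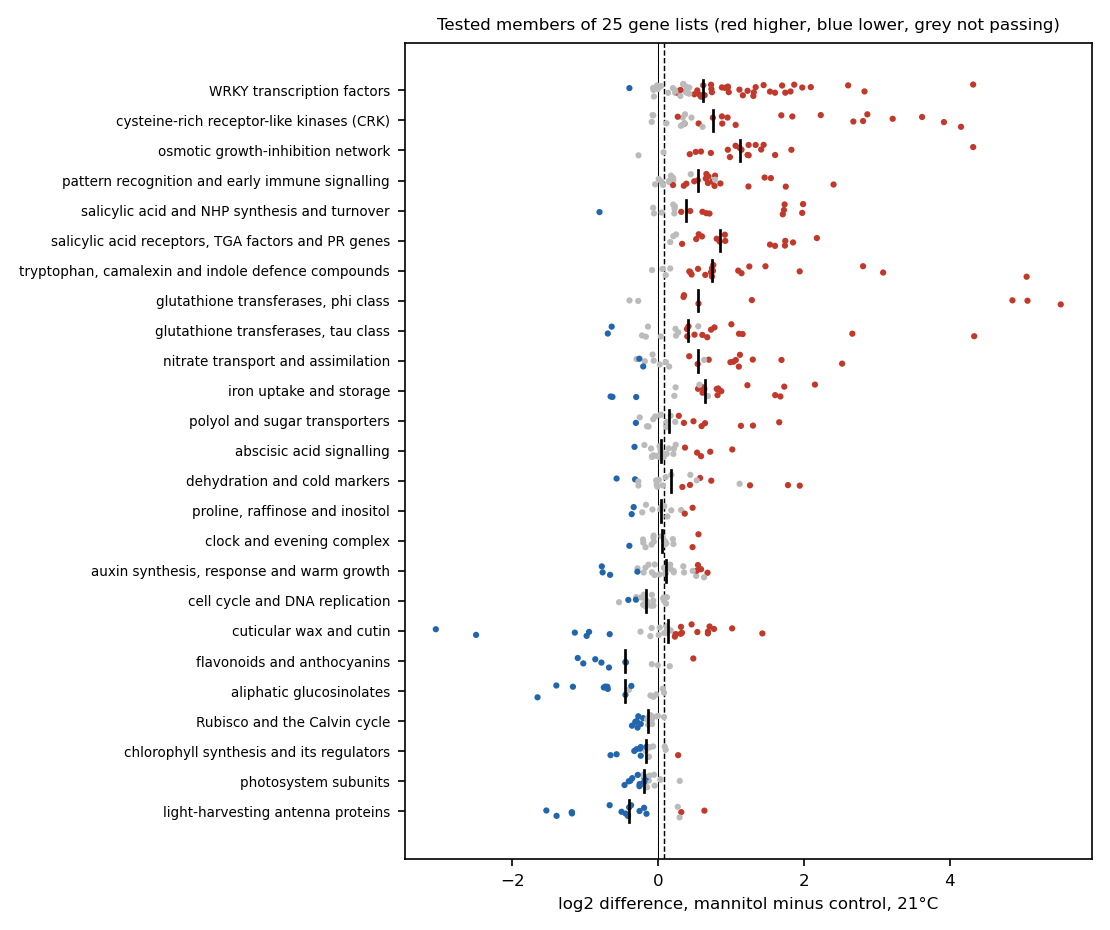
Log2 difference (mannitol minus control at 21°C) of every tested member of 25 gene lists, with a point per gene (red higher, blue lower, grey not passing), a black bar at each list's median and a dashed line at the median of all tested genes, 0.08. The WRKY, CRK and osmotic network lists lie mostly to the right, the antenna and aliphatic glucosinolate lists to the left, and the abscisic acid signalling list around 0. Lists can share genes, and WRKY30 is in both the WRKY and the osmotic network lists.

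Genes for indole defence compounds rose and genes for aliphatic glucosinolates fell. In the tryptophan, camalexin and indole list 18 of 22 rose and 0 fell, in both scalings. The median was 0.74. Members rose at both ends of the pathway. The first enzymes of tryptophan synthesis ASA1 and ASB1 rose by 0.55 and 0.64, CYP79B2, which leads tryptophan into indole defence, by 0.43, and PAD3, the last enzyme of camalexin, by 1.47 ± 0.18. CYP81F2 (AT5G57220), which modifies indole glucosinolates for defence, went from 3.37, 3.17 and 3.44 TPM to 36.7, 33.7 and 36.7 TPM (3.09 ± 0.09, adjusted p = 6.60e-12). CYP71A13 was listed at 0 in all controls and at 7.46, 3.97 and 7.19 TPM with mannitol. Its sequence is close to that of CYP71A12, so reads of the pair may be split uncertainly.

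Among aliphatic glucosinolate genes, which use methionine, 0 of 15 rose and 9 fell, 0 and 10 after rescaling, with a median of -0.45. CYP79F1 (AT1G16410), the first enzyme of the core pathway, went from 21.3, 20.5 and 27.8 TPM to 7.55, 4.69 and 8.07 TPM (-1.66 ± 0.26, adjusted p = 0.000322). MAM1, which lengthens the methionine chain, fell by 1.17 ± 0.14, and FMOGS-OX3 by 1.40 ± 0.17. Their regulators MYB28 and MYB29 stood at 0.08 and -0.07 and did not pass. Of 13 myrosinases and specifier proteins 5 fell and 1 rose, 6 and 0 after rescaling. Flavonoid and anthocyanin genes had 7 of 11 lower and 1 higher, 7 and 0 after rescaling. DFR, of anthocyanin synthesis, fell by 0.86 ± 0.17. The flavonol regulator MYB12 (0.48 ± 0.15, adjusted p = 0.0329) was the riser and kept its call only without mannitol library 1 among the fits that left out a library, with adjusted p-values of 0.0576 to 0.124 in the others. Among myrosinases the riser was PYK10 (0.22), and a further member rose without control library 3 or without mannitol library 2.

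Detoxification genes beyond the leading pair rose too. Of 9 tested phi class glutathione transferases 7 rose and 0 fell, 6 and 0 after rescaling, and of 23 tau class members 13 rose and 2 fell, 11 and 3 after rescaling. Of the tau members that fell, 1 lost its call without control library 2 or 3 or without mannitol library 1 or 3. GSTU11 rose by 2.66 ± 0.18 and GSTF8 by 0.35 ± 0.06. The mitochondrial retrograde list, genes switched on when respiration is disturbed, had 6 of 11 higher and 0 lower in both scalings, with the alternative oxidase AOX1A at 0.89 ± 0.12 and the glucosyltransferase UGT74E2 at 1.24 ± 0.14.

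Among the superoxide dismutases some rose and some fell. CSD1 (AT1G08830), the cytosolic copper/zinc enzyme, went from 40.9, 46.5 and 50.9 TPM to 152, 165 and 157 TPM (1.76 ± 0.10, adjusted p = 6.29e-09). CSD2 (AT2G28190), its chloroplast counterpart, went from 58.2, 62.9 and 58.9 TPM to 152, 219 and 185 TPM (1.59 ± 0.10, adjusted p = 3.17e-08). FSD1 (AT4G25100), the iron enzyme, moved down from 635, 549 and 547 TPM to 264, 230 and 226 TPM (-1.26 ± 0.08, adjusted p = 3.49e-08). The ranges did not overlap for any of the 3. The copper/zinc enzyme CSD3 rose by 0.32, a call lost after rescaling (adjusted p = 0.0682) and without control library 1 or mannitol library 3 (adjusted p = 0.0539 and 0.0602), and the iron enzyme FSD3 fell by 0.33. The iron enzyme FSD2 and the manganese enzyme MSD1 were at -0.13 and 0.17 and did not pass. Over the list for removal of hydrogen peroxide and superoxide 7 of 20 rose and 5 fell, 3 and 8 after rescaling, and without control library 1 the risers came to 4. Of endoplasmic reticulum folding genes 3 of 18 rose and 0 fell, 3 and 1 after rescaling. The 16.7% that rose before rescaling was near the 15.4% of all tested genes. Of cytosolic chaperones and heat shock factors 5 of 20 rose and 2 fell, 4 and 2 after rescaling, with the chaperone HSP70 at 1.07 ± 0.09. The 5 and 2 are 25% and 10%, against 15.4% and 4.61% of all tested genes. Of the chaperone genes 1 fell, not 2, without control library 1 or 3 or without mannitol library 1 or 3.

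Of the abscisic acid genes several rose, while most of the signalling list did not pass. In the synthesis and breakdown list 4 of 9 tested members rose and 1 fell in both scalings. The risers include the catabolic hydroxylase CYP707A3 (1.26 ± 0.20), and ABA1, an early enzyme of the synthesis route, fell by 0.45 ± 0.11. NCED3 (AT3G14440), the rate-limiting enzyme under drought, was at 2.42, 1.47 and 1.63 TPM and at 1.64, 1.51 and 1.91 TPM (-0.07 ± 0.21, adjusted p = 0.865), with overlapping groups. In the signalling list 5 of 25 rose and 1 fell, 4 and 2 after rescaling, with a median of 0.04. Before rescaling that is 20% higher and 4% lower, against 15.4% and 4.61% of all tested genes, whose median was 0.08. The member that fell, HAB2, kept its call only without mannitol library 1 among the fits that left out a library. Of the 5 risers, ABI5 (0.53), a transcription factor, lost its call without control library 2 or 3 or without mannitol library 1, with adjusted p-values of 0.0541 to 0.0786. The other 4 were receptors. Of these PYR1 lost its call after rescaling (adjusted p = 0.0838 by limma). Its call was also lost without control library 1 or mannitol library 3 (adjusted p = 0.0595 and 0.0688). PYL6 (AT2G40330) went from 23.8, 29.3 and 27.4 TPM to 52.2, 60.7 and 52.8 TPM (1.02 ± 0.12, adjusted p = 2.62e-05), and PYL5 and PYL4 rose by 0.71 ± 0.09 and 0.59 ± 0.07.

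Dehydration and cold markers gave a divided picture. Of 21 tested members 7 rose and 2 fell, 6 and 3 after rescaling. Of the members that fell 1 remained without control library 2 or 3 or without mannitol library 1 or 2. RD22 (AT5G25610) went from 60.3, 61.8 and 69.7 TPM to 202, 241 and 223 TPM (1.78 ± 0.08, adjusted p = 8.56e-10), and the small hydrophilic protein KIN1 rose by 1.94 ± 0.17. RD29A (AT5G52310), a common reporter of abscisic acid and dehydration, stood at 12.4, 13 and 11.6 TPM and at 11.1, 10.1 and 8.96 TPM. It did not pass (-0.27 ± 0.12, adjusted p = 0.134) but did so in the downward direction after rescaling (-0.37, adjusted p = 0.0392). RD29B ranged from 1.51 to 11.3 TPM in the controls and from 4.74 to 11.3 TPM with mannitol (0.53 ± 0.40, adjusted p = 0.403). P5CS1 (AT2G39800), which controls proline synthesis, had 13.5, 13.2 and 12.6 TPM without and 13.8, 13.8 and 12.8 TPM with mannitol (0.04 ± 0.18, adjusted p = 0.916, and -0.06 after rescaling). PRODH, which breaks proline down, rose by 0.47 ± 0.09, and over the proline, raffinose and inositol list 2 of 13 rose and 2 fell in both scalings. Each count is 15.4% of the list, against 15.4% higher and 4.61% lower over all tested genes before rescaling.

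Transport genes included several that move sugars and polyols. PMT5 (AT3G18830), a transporter that accepts mannitol and other polyols, went from 52.0, 45.1 and 45.5 TPM to 116, 119 and 119 TPM (1.3 ± 0.07, adjusted p = 2.41e-09). The sugar uptake carriers STP4 and STP13 rose by 1.66 ± 0.06 and 1.13 ± 0.14. In the list 8 of 20 rose and 1 fell, 7 and 3 after rescaling. Aquaporins, the water channels, had 5 of 27 higher and 7 lower, 3 and 8 after rescaling. The 5 and 7 are 18.5% and 25.9%, against 15.4% and 4.61% of all tested genes. The abundant vacuolar channel TIP1;2 (AT3G26520) fell from between 1771 and 1868 TPM to between 1125 and 1326 TPM (-0.54 ± 0.07, adjusted p = 2.75e-05), and the boric acid channel NIP5;1 rose by 1.46 ± 0.10. The higher count was 2 to 3 when control library 1, mannitol library 1 or mannitol library 3 was left out, and the lower count was 4 without control library 2 or mannitol library 2.

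Nitrate and ammonium genes rose as a group. Of 21 tested members 11 rose and 2 fell, 10 and 3 after rescaling, and 7 rose at least 2-fold (median 0.54). NRT2.1 (AT1G08090), the main high-affinity nitrate transporter of the root, went from 1.08, 1.75 and 3.08 TPM to 17.5, 16.3 and 12.8 TPM (2.52 ± 0.22, adjusted p = 7.80e-07). Its partner protein NRT3.1 rose by 1.11 ± 0.12, the dual-affinity transporter NRT1.1 by 1.06 ± 0.08 and the xylem loader NRT1.5 by 1.69 ± 0.12. Cytosolic glutamine synthetase GLN1;1 and glutamate dehydrogenase GDH1 rose by 1.3 ± 0.10 and 1.12 ± 0.07. The nitrate reductases NIA1 and NIA2 were at -0.08 and -0.06 and did not pass. With any 1 library left out, 1 member and not 2 fell.

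Most iron genes rose, and many varied widely between control libraries. Of 21 tested members 13 rose and 3 fell, 12 and 3 after rescaling, and the median was 0.64. BHLH39 (AT3G56980), a transcription factor of the iron deficiency response, had 3.0, 12.8 and 22.7 TPM in the controls and 52.2, 42.1 and 48.9 TPM with mannitol (2.15 ± 0.45, adjusted p = 0.00323). Its relatives BHLH38 and BHLH101 rose by 1.68 ± 0.38 and 1.60 ± 0.28, and the iron stores FER1, FER3 and FER4 fell by 0.65, 0.30 and 0.63. The root iron reductase FRO2 stood at 18.6, 51.6 and 92 TPM without and at 56.9, 48.9 and 51.7 TPM with mannitol (0.22 ± 0.38, adjusted p = 0.756), so here the controls enclosed the mannitol libraries. The uptake carrier IRT1 and the regulator FIT, at 0.56 and 0.64, did not pass either. In 18 of the 21 members control library 1 was the lowest of the controls, and in 17 control library 3 was the highest. Without library 1 12 members rose and 3 fell, and without library 3 16 rose and 3 fell. What sets these libraries apart was not tested.

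Root markers stood slightly to the same side. Their summed level was 146 to 186 TPM in the controls and 187 to 198 TPM with mannitol, none was at 0 in all libraries, and 0 of 11 passed in either direction (median 0.26). Without control library 2, 2 of them passed as higher. In the suberin and Casparian strip list, genes of the root barrier, 6 of 20 rose and 0 fell, 4 and 0 after rescaling, and 3 rose without control library 1, mannitol library 1 or mannitol library 3. PER64, a peroxidase of the Casparian strip, rose by 0.63 ± 0.14. The part of root content in the nitrate and iron results was not tested.

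Genes of the shoot surface changed in both directions. The wax and cutin list had 14 of 31 tested members higher and 6 lower, 8 and 6 after rescaling. The 14 and 6 are 45.2% and 19.4%, against 15.4% and 4.61% of all tested genes. Among the risers whose call was lost after rescaling were CER2, CER3 and CER6 (adjusted p = 0.0676, 0.0936 and 0.15 by limma). MYB96 (AT5G62470), which activates wax genes under drought, went from 8.00, 6.16 and 5.60 TPM to 19.8, 17.3 and 20.8 TPM (1.43 ± 0.13, adjusted p = 1.38e-06), and the acyl-CoA synthetase LACS1 rose by 1.01 ± 0.06. Beside CER1 and DCR, the cutin hydroxylases CYP77A6 and CYP86A4 fell by 1.14 ± 0.14 and 0.95, the acyltransferase GPAT6 by 0.67, and MYB106, an epidermal regulator of cutin genes and trichomes, by 0.98 ± 0.11. Markers of the stomatal lineage were lower in the same seedlings. Their summed level was 103 to 114 TPM without and 70.3 to 81.4 TPM with mannitol, and 4 of 7 fell and 0 rose in both scalings. EPF2 (AT1G34245), a peptide of early lineage cells, had a mean of 9.05 ± 1.15 (SD, n = 3) TPM in the controls and of 3.35 ± 1.08 (SD, n = 3) TPM with mannitol, with no overlap (-1.23 ± 0.22, adjusted p = 0.000993), and SPCH, TMM and FAMA fell by 0.63, 0.59 and 0.43. The share of epidermal cells in the wax and cutin values was not tested.

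Photosynthesis genes fell, the antenna most. Of 18 light-harvesting genes 14 fell and 2 rose, 14 and 1 after rescaling, with a median of -0.41. LHCB3 (AT5G54270), an antenna protein of photosystem II, went from 1139, 1171 and 1268 TPM to 604, 416 and 571 TPM (-1.18 ± 0.10, adjusted p = 8.18e-07). LHCA4 of photosystem I fell by 1.18 ± 0.09. Among the LHCB1 copies, LHB1B1, CAB2, LHB1B2, CAB3 and CAB1 fell by 1.54, 1.39, 1.19, 0.67 and 0.37; the copies are nearly identical, so the differences among them are uncertain. The risers were LHCB2.2 and LHCB2.3, and 0 members rose without control library 2 or without mannitol library 3, and 1 without control library 3.

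Core complexes and carbon fixation fell by less, and here the scaling sets the count. Of 21 photosystem subunits 11 fell and 0 rose, 13 and 0 after rescaling. Of 18 Rubisco and Calvin cycle genes 8 fell and 0 rose, 14 and 0 after rescaling, with the Rubisco activase RCA at -0.28 ± 0.05. Of 17 chlorophyll synthesis genes 8 fell and 1 rose, 13 and 0 after rescaling, and 5 fell without control library 1, mannitol library 1 or mannitol library 3. The riser kept its call only without control library 1 among the fits that left out a library. CHLH (AT5G13630), a subunit of magnesium chelatase, went from 205, 192 and 201 TPM to 126, 126 and 127 TPM (-0.65 ± 0.11, adjusted p = 0.000455). The summed level of 5 green tissue markers was 65926.9 to 67677.4 TPM in the controls and 52805.5 to 53526.9 TPM with mannitol, and 4 of them fell. Among them PSAD1 lost its call when any 1 of the 6 libraries was left out (adjusted p = 0.0585 to 0.151 by limma). With no filter on low values 1 of the 5 markers was called lower. In the list for chlorophyll breakdown and senescence 10 of 20 rose and 1 fell, 10 and 2 after rescaling. Of the risers 8 were NAC or WRKY transcription factors, such as JUB1 (2.1 ± 0.20), ATAF2 (1.1 ± 0.10) and ORE1 (0.89 ± 0.11), while the enzymes that degrade chlorophyll, PAO, PPH and SGR1, did not pass at -0.22, 0.11 and -0.03.

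Of the evening complex genes, ELF4 rose and ELF3 and LUX did not pass. ELF3 (AT2G25930), a scaffold of the evening complex, had 69.1, 61.4 and 66.4 TPM without and 67.9, 73.9 and 70.9 TPM with mannitol (0.11 ± 0.10, adjusted p = 0.477), and the groups overlapped. Its partner ELF4 (AT2G40080) went from 53.9, 57.9 and 61.0 TPM to 84.2, 85.1 and 85.1 TPM (0.55 ± 0.08, adjusted p = 0.000271), while LUX was at 0.05 and did not pass. In the clock list 2 of 18 rose and 1 fell, 2 and 2 after rescaling, at the only time collected. Before rescaling that is 11.1% and 5.56%, against 15.4% and 4.61% of all tested genes. Without control library 1 ELF4 was higher and PRR5 was not (adjusted p = 0.0674). The member that fell was PRR3 (-0.40), joined by another without mannitol library 1. PIF4 (AT2G43010), the main growth factor of warm seedlings, stood at 2.1, 2.08 and 2.43 TPM and at 2.25, 1.27 and 1.45 TPM (-0.28 ± 0.16, adjusted p = 0.238). PIF5 rose by 0.54 ± 0.10.

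Of 29 auxin and warm growth genes 4 rose and 4 fell, 3 and 4 after rescaling. Before rescaling that is 13.8% each way, against 15.4% higher and 4.61% lower over all tested genes. The fallen members came to 1 or 2 without control library 1, control library 2 or any 1 of the mannitol libraries. YUC2, an auxin synthesis enzyme, fell by 0.66 ± 0.16 and ATHB2, a shade response factor, rose by 0.68 ± 0.12. Of 17 gibberellin genes 2 rose and 1 fell, of 20 ethylene genes 4 rose and 2 fell, and of 21 jasmonate genes 4 rose and 2 fell. After rescaling these counts were 2 and 2, 2 and 2, and 3 and 3. Before rescaling, 11.8%, 20% and 19% rose and 5.88%, 10% and 9.52% fell, against 15.4% and 4.61% of all tested genes. With 1 library left out, the fallen members ranged from 0 to 1 for gibberellin, 0 to 2 for ethylene and 0 to 3 for jasmonate. For gibberellin 0 fell without control library 2 or 3 or mannitol library 1 or 3, for ethylene 0 fell without control library 1 or mannitol library 2 or 3, and for jasmonate 0 fell without control library 1 or mannitol library 1 or 3. Without control library 2, 1 gene fell in each of the ethylene and jasmonate lists. ACS7, which makes the precursor of ethylene, rose by 1.48 ± 0.21, and the jasmonate repressor JAZ1 by 0.66 ± 0.12.

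Wall and division genes moved in both directions or hardly at all. Expansins, which loosen walls, had 6 of 23 higher and 3 lower, 4 and 3 after rescaling, with EXPA16 at -1.03 ± 0.12 and EXPA4 at 0.56 ± 0.06. Xyloglucan endotransglucosylases had 4 of 25 higher and 4 lower, 1 and 6 after rescaling. Before rescaling that is 16% each way, against 15.4% higher and 4.61% lower over all tested genes. Leaving out 1 library gave 2 to 4 higher and 1 to 4 lower members, with 2 higher without control library 1 or mannitol library 1 or 3, and 1 or 2 lower without control library 2 or mannitol library 2 or 3. XTH6 fell by 1.19 ± 0.13 and XTH33 rose by 1.28 ± 0.22. Of 22 cell cycle genes 0 rose and 2 fell, 0 and 6 after rescaling, and 0 or 1 was lower when any 1 library was left out. Of 24 starch and dark response genes 2 rose and 3 fell, 1 and 7 after rescaling. There 1 rose without control library 1 or mannitol library 1 or 3, and 0 or 1 fell without any library but control library 3. Of 14 phenylpropanoid and lignin genes 6 rose and 2 fell, 3 and 4 after rescaling. Only 4 rose without control library 1 or any 1 of the mannitol libraries. Of 9 type-A response regulators of cytokinin only ARR4 changed, by -0.47 ± 0.06. Of 21 U-box ubiquitin ligases 5 rose and 0 fell, 4 and 0 after rescaling, and of 6 calmodulin-like proteins 3 rose and 0 fell, 2 and 0 after rescaling. Before rescaling 26.1% of expansins, 0% of cell cycle and 8.33% of starch genes were higher, and 13%, 9.09% and 12.5% lower. For phenylpropanoid genes, ubiquitin ligases and calmodulin-like proteins 42.9%, 23.8% and 50% were higher, and 14.3%, 0% and 0% lower. Of all tested genes 15.4% were higher and 4.61% lower. Seed markers, with 4 tested members, and the meristem marker STM did not pass.

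The same treatment at 27°C shows which of these responses depended on temperature. The mannitol effects at 21°C and at 27°C differed for 1024 genes by the interaction contrast, 5.12% of those tested, the effect at 27°C being the higher for 486 and the lower for 538. Without mannitol library 3 the count was 659. Of the 671 genes raised at least 2-fold at 21°C 129 were among them, the effect at 27°C being smaller for 118 and larger for 11. Of the 76 lowered genes 31 were, 26 closer to 0 at 27°C and 5 more negative. These genes had been picked for a large value at 21°C, so the split into smaller and larger is a description only.

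Of the genes described above, several responded differently at the warmer temperature. CYP71A12 was raised by 5.05 at 21°C and by 1.51 at 27°C (interaction -3.54 ± 0.33, adjusted p = 3.47e-05). GSTF7 was raised by 5.07 and 2.96 (interaction adjusted p = 1.38e-05), while AT2G43620, at 6.22 and 5.54, showed no difference that passed (adjusted p = 0.141). The nicotianamine synthase NAS2 (AT5G56080), of metal transport, rose by 1.45 at 21°C and was at -1.62 at 27°C (interaction adjusted p = 0.00114). The anion channel relative SLAH1 rose by 1.08 and was at -1.70 at 27°C (interaction adjusted p = 1.50e-05). The abscisic acid receptors PYL6, PYL5 and PYL4 rose at 21°C and stood at -0.35, -0.28 and -0.11 at 27°C, with interaction adjusted p = 0.000288, 0.000457 and 0.000906.

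The remaining genes compared here were lowered or hardly changed at 21°C, or showed no difference that passed. TGG2 was lowered by mannitol at 21°C and stood at -0.40 at 27°C (interaction adjusted p = 3.35e-05). P5CS1, at 0.04 at 21°C, was at 1.62 at 27°C (adjusted p = 0.00149). The LHCB1 copy CAB3 was at -0.67 and -2.50 (adjusted p = 1.09e-06). ICS1 was raised by 0.66 at 21°C and by 1.1 at 27°C, a difference that did not pass (adjusted p = 0.209), as was also so for PR5 (2.18 and 2.53, adjusted p = 0.404) and ELF3 (0.11 and 0.47, adjusted p = 0.158).

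**Figure D4:**
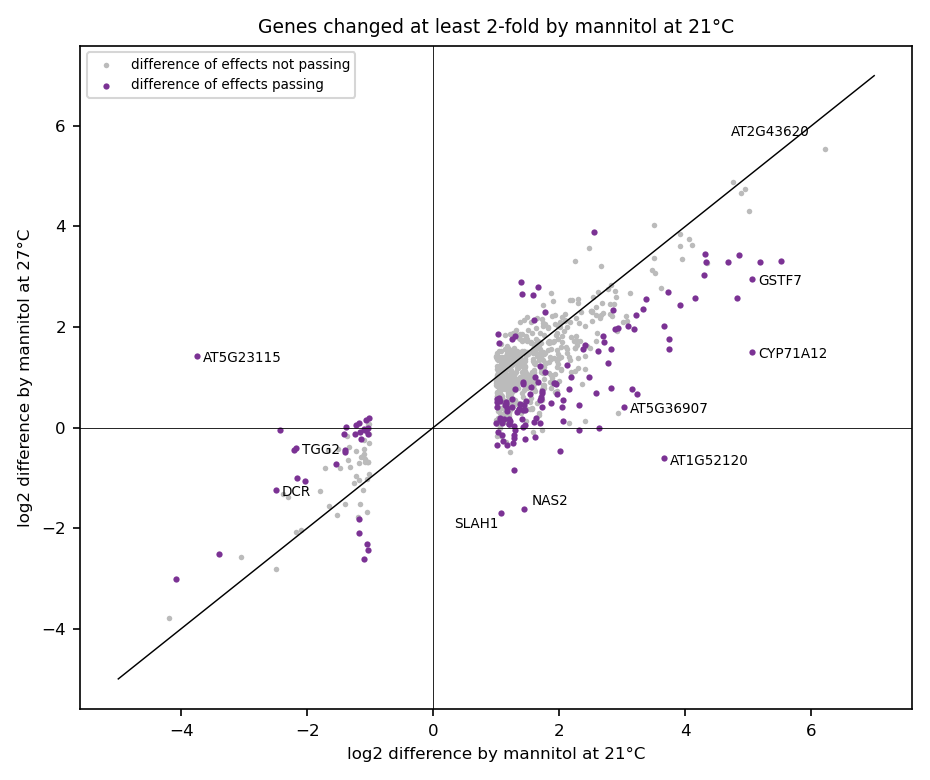
Log2 difference by mannitol at 27°C (vertical) against that at 21°C (horizontal) for the 747 genes changed at least 2-fold at 21°C, a point per gene; purple marks the 160 genes whose effects differed by the interaction contrast, and the line marks equal effects. Because the genes were chosen on the horizontal axis, points tend to lie nearer 0 on the vertical one; CYP71A12, AT1G52120, NAS2 and SLAH1 lie far below the line.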

How the data were processed

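The deposited table held 1 value per gene for 12 libraries, 3 in each of 4 groups. Its columns are labelled counts, but each sums to 1000000, so the values the authors deposited are TPM. Tools listed in the submitters' processing notes, with no role given, are DESeq2 1.26.0, fastp 0.20.1 and HISAT2, and the build is TAIR10. Per the labels' protocols, RNA was isolated on columns and libraries were made with a NEBNext Ultra kit. No source used here states the strand, so overlapping and antisense genes cannot be told apart.

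Of 27655 genes, 20005 had at least 1 TPM in at least 3 libraries. Genes near 0 TPM in the controls at 21°C entered only through other libraries and could hardly be called lower. Shares of risers and counts of fallers in the lists carry this limit. log2(TPM + 1) was fitted with limma 3.58.1 in R 4.3.3 as 4 group means over all 12 libraries, with an intensity trend in the prior variance. The pseudocount of 1 understates changes of low genes. P-values were adjusted by Benjamini-Hochberg over all tested genes, with a threshold of 0.05, and the fit was tested on simulated data. The interaction contrast subtracts the effect of mannitol at 21°C from its effect at 27°C. Reads per library were recovered from the steps between low TPM values for 21760 genes, with a tolerance of 0.01 of a read. The depth limits the precision of low values, and recovered reads served only for an alternative added after the data had been seen.

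Gene symbols and gene starts came from RefSeq TAIR10.1, which matched 27445 genes; 210 organelle genes had no match. The members and lists, 40 lists and 11 families with 767 genes, were chosen with earlier results of these data known. Named were the 15 highest and the 15 lowest genes with a mean of at least 5 TPM in the higher group and no overlap, up to 6 members of each list with the largest passing difference, up to 2 where none passed, the 10 largest interactions, and ELF3, ICS1, PIF4, NPR1, PR1, NCED3, RD29A, RD29B and P5CS1. EDS5, EPS1, ERF2, ERF8, ASA1, ASB1, CYP79B2, MYB28, MYB29, PYK10, NIA1, NIA2, FER1, FER3, FER4, IRT1, FIT, CYP86A4, GPAT6, HAB2, ABI5, LHCB2.2, LHCB2.3, PAO, PPH, SGR1, LUX, PRR3, CSD3, FSD2, FSD3 and MSD1 fall outside that rule and were chosen after their values had been seen. The same holds for CER2, CER3 and CER6. Alternatives were a median-of-ratios rescaling, a pseudocount of 0.1, no filter, a fit of the 6 libraries at 21°C, a replicate block, leaving out each library in turn, and limma's voom on recovered reads.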

Additional observations from a re-analysis of the deposited data

Results flagged for a closer look

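The effect of mannitol at 27°C differed from that at 21°C for 1024 genes by the interaction contrast of the limma fit (Benjamini-Hochberg adjusted p below 0.05). The 10 largest of these differences, on the log2(TPM + 1) scale and as the effect at 27°C minus that at 21°C, were as follows. CYP71A12 was at -3.54 and the jacalin-related AT1G52120 at -4.27. NAS2 was at -3.07 and SLAH1 at -2.78. The iron genes FRO2 and CYP82C4 were at -2.76 and -2.71, with controls at 21°C that spread widely. AT4G19750 was at -2.63 and AT5G36907 at -2.62. The uncharacterized AT5G23115 was at 5.18 and AT2G01023 at 2.93. Some alternatives ended the call of 3 of these genes. The adjusted p was 0.0561 to 0.17 in those for AT5G23115, which include the fits without 21°C replicate 1 or any mannitol library at 21°C. It was 0.0516 to 0.153 for AT2G01023, which include those without 21°C replicate 2 or 3 or 21°C with mannitol replicate 1 or 2. It was 0.0533 to 0.0765 for AT4G19750, without 21°C replicate 2 or 21°C with mannitol replicate 1 or 3.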

How the results depend on the processing

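The calls of strong changes hardly depended on the processing, while weak calls and the numbers of genes that reached 2-fold did. Of the 671 genes at least 2-fold higher, 653 to 671 were called in the same direction in every one of the 12 alternatives, and of the 76 lower genes 74 to 76. The count of higher genes was 2024 with voom on recovered reads, and that of lower genes was 1907 after rescaling and 1972 with voom. With 1 library left out, lower genes ranged from 576 to 797 and the genes whose effect differed at 27°C from 659 to 888. At least 2-fold higher genes, 671 in the main fit, numbered 576 after rescaling, 916 with a pseudocount of 0.1 and 781 with voom. At least 2-fold lower genes numbered 99 after rescaling, 121 with a pseudocount of 0.1 and 145 with voom. The cause of these shifts was not tested, except that rescaling and voom remove the median shift between libraries and leaving out a library leaves fewer samples. The replicate block gave 2958 higher and 858 lower genes, with 671 and 76 at least 2-fold and 959 interactions. Same-numbered libraries at 21°C did not deviate together (correlations of -0.0577 to 0.00472), and none of the 6 correlated best with its own number. Over all 4 groups the correlations were -0.0763 to 0.128, not every one above 0.1, so the numbers were not used as pairs.

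Of 277 named genes that passed, none changed direction in any alternative, and 53 lost the call in at least 1. Differences that changed sign belonged to genes that did not pass. With 1 library left out, CRA1 ranged from -1.27 to 0.56, OLEO2 from -0.24 to 0.56, FRO2 from -0.39 to 0.73, CYP82C4 from -0.45 to 0.84, NCED3 from -0.16 to 0.073 and RD29B from -0.065 to 1.08. P5CS1 was at -0.062 after rescaling and -0.066 with voom. Depth and 3 libraries per group limit what can be said of genes near 1 TPM.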

Other observations

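Sulfur genes, a group chosen after its values had been seen, fell more often than they rose with mannitol at 21°C. Of 25 tested genes for sulfate uptake, sulfate assimilation and the response to sulfur shortage 12 fell and 5 rose, 12 and 2 after rescaling. Over all tested genes 4.61% fell and 15.4% rose. The median log2 difference was -0.34, and 6 genes were at least 2-fold lower. They include LSU2 and LSU3 of the shortage response (-1.04 and -1.03). The sulfate transporter SULTR2;1 went from 51.4, 43.3 and 42.9 TPM to 15.5, 14.9 and 19.8 TPM (-1.41 ± 0.14, adjusted p = 4.09e-06 by limma). APR1, an enzyme that reduces activated sulfate, went from 83.3, 78.1 and 81.8 TPM to 26.7, 37.5 and 28.1 TPM (-1.38 ± 0.11, adjusted p = 4.30e-07 by limma). The related APR2 and APR3 fell by 0.88 and 0.86, whereas SERAT2;1, of cysteine synthesis, rose by 0.89.

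Among 8 copper genes, also chosen after their values had been seen, 3 rose and 0 fell, 2 and 0 after rescaling. Of all tested genes 15.4% rose and 4.61% fell. The riser that lost its call after rescaling was CSD3 (0.32, adjusted p = 0.0682 by limma). CCS, the chaperone that loads copper into CSD1 and CSD2, went from 34.6, 28.2 and 32.0 TPM to 77.7, 98.2 and 82.8 TPM (1.42 ± 0.09, adjusted p = 3.19e-08 by limma). The plantacyanin ARPN rose by 1.55 ± 0.15, and the uptake carrier COPT2, at 0.46, did not pass (adjusted p = 0.0993). COPT1, SPL7, FRO4 and FRO5, the rest of the group, did not pass either, at 0.16, 0.21, -0.18 and 0.50.

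Families were grouped by product name after the data had been seen, and over all tested genes 15.4% rose and 4.61% fell, 10.3% and 9.53% after rescaling. Of 18 berberine bridge enzyme genes 13 rose and 0 fell, and 8 rose at least 2-fold; after rescaling 11 rose and 2 fell. Of 53 peroxidase superfamily genes 28 rose and 1 fell, 23 and 2 after rescaling. Of 64 NAC factors 24 rose and 0 fell, 22 and 0 after rescaling, and of 120 intracellular immune receptors 36 rose and 0 fell, 27 and 0 after rescaling. MATE efflux carriers had 17 of 42 higher and 3 lower, 14 and 4 after rescaling. SAUR-like genes, with 9 of 57 higher and 1 lower, 6 and 3 after rescaling, had a share of risers near that of all genes. Of 254 pentatricopeptide repeat genes, which process organelle RNA, 3 rose and 5 fell, and 3 rose and 24 fell after rescaling.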
